A study of Mus musculus with 18 samples.

Results

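The question here is whether the microRNA changes that interferon gamma brings about in adipose-derived stromal cells (ASC) also reach the extracellular vesicles (EVs) that the cells release. It was put to the data as 1 contrast over all 18 of the 18 libraries of the series, in which the change in cells is subtracted from the change in vesicles, and libraries were placed in groups by their source names. The 4 groups are naive EV (n = 5, numbered 1 to 5), primed EV (n = 5, numbered 1 to 5), naive ASC (n = 4, numbered 1, 3, 4 and 5) and primed ASC (n = 4, numbered 2 to 5). All come from adult mice of the strain labelled NGL, with adipose as the tissue. Primed ASC were exposed to interferon gamma for 24 h, primed EVs came from such cells, and naive cells had no interferon. Every culture, naive or primed, was kept for 48 h in alpha MEM with 2% EV-free serum. Cell RNA came from TRIzol followed by RNeasy columns and vesicle RNA from SeraMir columns, and each TruSeq small RNA library was made from 5 microlitres. The method of RNA isolation differs between cells and vesicles but not between primed and naive libraries of 1 kind, so each priming effect is taken within 1 method. The labels do not say whether replicates are separate animals or cultures, so the spread that the p-values measure may be technical.

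MicroRNAs are transcribed as hairpins, cut to short mature strands and loaded onto Argonaute proteins, where a short seed near the 5′ end of the strand pairs with target messengers. Stromal cells export part of their microRNAs in vesicles, and vesicle content is known to differ from that of the parent cell. Interferon gamma is a T cell cytokine that is used to prime stromal cells because it raises their immune-modulating genes. The values below are counts per annotated hairpin locus, so the 2 arms of a hairpin cannot be told apart, and in bulk libraries fewer cells of a type and less RNA per cell cannot be told apart either.

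Total counts per library ran from 180812 in primed ASC 4 to 3052942 in primed EV 2, with counts at 303 to 423 loci. Of 2009 annotated loci, 245 passed a filter on low counts and were tested. The 9 mesenchymal markers Mir143, Mir145a, Mir199a-1, Mir199a-2, Mir199b, Mir214, Mir10a, Mir10b and Mir22 held 55.7% to 61.9% of counts in EV libraries and 26.2% to 50.4% in ASC libraries, and none was at 0 in every library of a group. The blood markers (6 of 7 are in the files) held 0.147% to 1.49% in EVs and at most 0.0559% in ASC, the endothelial Mir126a 0.198% to 0.902% and 0.00601% to 0.0592%, and the 7 epithelial markers at most 0.287% in either. Titles and source names number the libraries differently. Primed EV 1 is titled 5E+IFG2 and primed EV 5 is titled 5E+IFG1, and what IFG1 and IFG2 stand for is not stated in the labels. Naive EV 1 is titled 1+2E, naive EV 2 is titled 2E and naive ASC 1 is titled 1+2C. Libraries of a group whose titles share a number may not be independent of each other.

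Mature strands of named loci are shown first, from RefSeq (GRCm38.p6), and counts per hairpin do not say which arm was read. In the set used here 228 of the 245 tested loci have a mature sequence. Strands from the chromosome of Mir143 and Mir145a were left out of that set, so none is shown for these loci. Capitals mark the seed, bases 2 to 8. The first 3 share a seed, although their loci went opposite ways in cells.
miR-125a-5p: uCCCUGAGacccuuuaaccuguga
miR-125b-5p: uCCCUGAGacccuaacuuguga
miR-351-5p: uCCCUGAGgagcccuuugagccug
The next are strands of loci called in cells whose value in vesicles was near 0 or of smaller size.
miR-28a-5p: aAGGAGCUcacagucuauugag
miR-28a-3p: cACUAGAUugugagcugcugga
miR-382-5p: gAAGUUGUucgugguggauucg
miR-541-5p: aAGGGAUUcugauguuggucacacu
miR-218-5p: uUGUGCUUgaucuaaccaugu
The last are strands of the loci called in both cells and vesicles, and of the let-7 family, whose median in the contrast was above that of all loci. The set used here has no miR-147-3p and no miR-140-5p, so those arms are not shown.
miR-140-3p: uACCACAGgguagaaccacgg
miR-147-5p: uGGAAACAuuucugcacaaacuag
let-7f-5p: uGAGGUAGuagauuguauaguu
miR-98-5p: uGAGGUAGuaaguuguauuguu

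No single locus passed the test of a difference in response between vesicles and cells. In ASC 25 of 245 loci changed on priming (10.2%), 13 higher (5.31%) and 12 lower (4.9%). In EVs 2 changed (0.816%), Mir147 and Mir140, both higher, and 25 loci had an unadjusted p under 0.05, 16 higher (6.53%) and 9 lower (3.67%). The difference between the 2 responses passed at 0 of 245 loci (0%) at the threshold of 0.05 for the adjusted p, which here and below is that of edgeR's quasi-likelihood test after Benjamini-Hochberg adjustment over all tested loci, with a smallest adjusted p of 0.232. At an unadjusted p under 0.05 the contrast held 26 loci (10.6%), 17 above 0 (6.94%) and 9 below (3.67%), and limma-voom gave 29 such loci and 0 calls. DESeq2, which here tested 689 loci rather than 245, gave 39 and 0 calls. A call in cells without a call in vesicles is therefore not shown to be a difference between them at any of these loci.

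The contrast is less precise than either of its parts. Its median standard error (SE, on the log2 scale, from the fit) was 0.43, against 0.33 in ASC and 0.29 in EVs. At 51 of 245 loci (20.8%) the 95% interval of the difference lay within 2-fold in either direction, and at the other 194 it reached past 2-fold on at least 1 side. The call counts in cells depended on the scaling and on single libraries. The split of higher and lower calls was 13 and 12 with TMM, 18 and 5 with relative log expression factors, 17 and 2 with TMMwsp, 11 and 14 with library totals, 14 and 5 with upper quartiles, and 17 and 6 with TMM computed within each kind of library. The 25 calls fell to 6 without naive ASC 3 or without naive ASC 4, to 11 without primed ASC 3 and to 12 without primed ASC 4. Without both of the last 2, which have the fewest counts, 3 remained. Of the 25, Mir125a, Mir125b-2, Mir140, Mir218-1, Mir351 and Mir7224 kept their calls whichever 1 of the 18 libraries was left out. The median difference over all loci was 0.075 and moved to -0.14, -0.18, -0.17 and -0.08 with relative log expression factors, TMMwsp, library totals and TMM within each kind, so small differences are read relative to it.

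**Figure D1:**
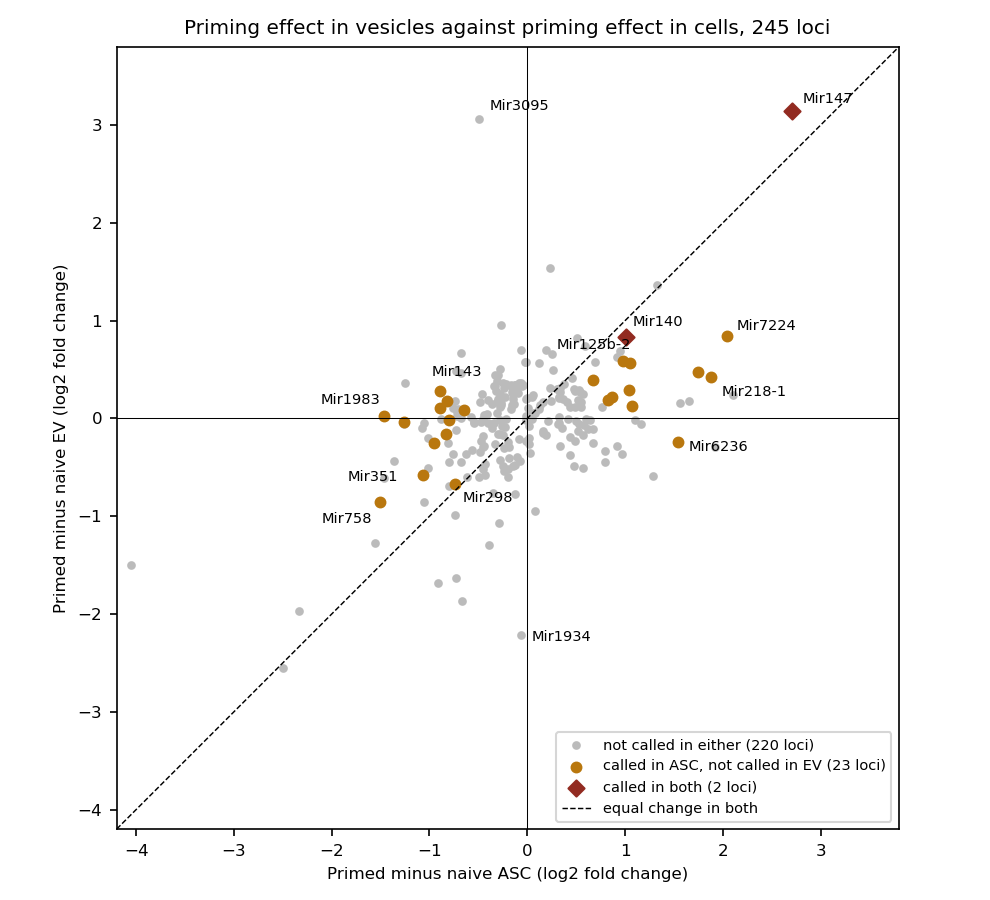
Priming effect in EVs (y axis, log2 fold change of primed over naive EV) against that in ASC (x axis, the same for ASC) at 245 loci, 1 point each. Brown points are the 23 loci called in ASC and not in EVs, red diamonds Mir140 and Mir147, called in both, and the dashed line marks equal change. Brown points lie closer to the horizontal line at 0 than to the dashed line at most loci, while both red diamonds lie near the dashed line.

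Across the 245 loci the 2 responses, which share no library but share 1 fit and its scaling, were correlated, with 0.453 for Pearson's r and 0.345 for Spearman's rho. At the 152 loci with a mean of at least 100 normalised counts in CPM (counts scaled to a common library total) these were 0.260 and 0.196. Loci are not independent replicates, and no p is given. The sign was the same at 141 of 245 loci (57.6%), and the change in ASC was the larger in absolute size at 163 (66.5%). Among the 25 loci called in ASC, 19 had the same sign in EVs. That was 12 of the 13 that rose and 7 of the 12 that fell in cells. Several of these EV values lie near 0, where the sign depends on the scaling. The EV median over all loci was 0.02 with TMM and -0.25 with library totals. The sign counts are those of TMM and were not made under other scalings. The loci that rose had a median log2 fold change of 1.05 in ASC and 0.42 in EVs, and those that fell had -0.89 and -0.02. The EV value was the smaller at 24 of the 25 and its 95% interval left out the ASC value at 19. As the 25 were chosen by their ASC values, which favours large ones on that side, these counts describe them and test nothing. On the log2 scale the EV change was a median of 25.1% of the ASC change, with a range from -31.6% to 116%, and it reached 50% at 8 of the 25.

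The same was done from the vesicle side. Of the 25 loci with the smallest p in EVs, 21 had the same sign in ASC, with a median absolute change of 0.70 in EVs and 0.59 in ASC, and the change was smaller in ASC at 16. The 25 smallest p in ASC gave 1.01 in ASC and 0.28 in EVs. The lists share 8 loci, 32% of each, namely Mir125b-1, Mir125b-2, Mir140, Mir147, Mir298, Mir351, Mir7224 and Mir758. All libraries of the primed group lay apart from all naive ones at 28 loci in ASC (11.4% of 245) and at 6 in EVs (2.45%). ASC groups hold fewer libraries than EV groups and part more often by chance, so these shares are not on 1 scale. Among the 25 loci called in ASC the groups lay apart for 17 in ASC and for 2 in EVs. The 25 were chosen by their ASC values, which favours the ASC count.

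Mir143 (ENSMUSG00000065445, chr18:61649190-61649269, intergenic), a microRNA of smooth muscle and other mesenchymal cells, had the smallest p of the contrast. Naive EV 1 to 5 held 255660, 187319, 278067, 294536 and 221618 CPM, and primed EV 1 to 5 held 252994, 259782, 335508, 360667 and 294415. Naive ASC 1, 3, 4 and 5 held 107457, 143591, 140142 and 55088, and primed ASC 2 to 5 held 67460.3, 60195, 55166 and 58108. Vesicle libraries overlapped, and in cells naive ASC 5 lay with the primed libraries while the other 3 naive ones lay well above them. Mir143 fell in ASC by 0.89 on the log2 scale (SE 0.23; edgeR adjusted p = 0.0233) and was at 0.28 in EVs (SE 0.21). The difference was 1.17 (SE 0.31, 95% interval 0.53 to 1.81; edgeR adjusted p = 0.232). It passed in 2 alternatives, without naive ASC 5 (1.28, edgeR adjusted p = 0.000138) and with no filter on low counts (1.26, edgeR adjusted p = 0.0195), and over all alternatives its adjusted p ran from 0.000138 to 0.487. The call in ASC was lost without naive ASC 3 or 4 and without primed ASC 3 or 4.

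Its neighbour Mir145a (ENSMUSG00000065592, chr18:61647816-61647903), which is made from the same primary transcript, gave -0.71 in ASC, 0.06 in EVs and a difference of 0.78 (SE 0.32), none of which passed. Mir199a-2 (within Dnm3os, a non-coding RNA of mesenchyme) gave -0.73, 0.49 and 1.21 (SE 0.43). For both the ASC value was below 0 and the EV value above it, as for Mir143. Over the list of 24 tested mesenchymal loci the difference was above 0 at 14, with a median of 0.34, beside 130 of 245 and 0.075 over all loci, and 0 passed. That median stayed between 0.07 and 0.34 over the 6 scalings. Of the other abundant loci of the list, Mir22 had a difference of 0.42 (SE 0.32), Mir10a of 0.79 (SE 0.42) and Mir10b of 0.31 (SE 0.61). The value of Mir10b changed sign in 7 alternative fits and was -0.42 without naive ASC 1.

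Mir28a (ENSMUSG00000065494, chr16:24827855-24827940) lies in an intron of Lpp, a gene for a focal adhesion protein, and both of its strands are printed above. Its 5 naive EV libraries held 2422, 2243, 2362, 2403 and 1994 CPM and its 5 primed EV libraries 1989.7, 2380.1, 2466, 2793 and 2528. In naive ASC it stood at 2791, 2732, 3288 and 2669.7, and in primed ASC at 1432, 1667, 2121 and 2091. All 4 primed ASC libraries lay under all 4 naive ones, while the vesicle groups overlapped. The change was -0.65 in ASC (SE 0.17; edgeR adjusted p = 0.0231) and 0.09 in EVs (SE 0.15), a difference of 0.74 (SE 0.22, 95% interval 0.28 to 1.20; edgeR adjusted p = 0.267). The ASC call was lost in 8 of 16 alternatives and in 5 of 18 fits that each left out 1 library.

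**Figure D2:**
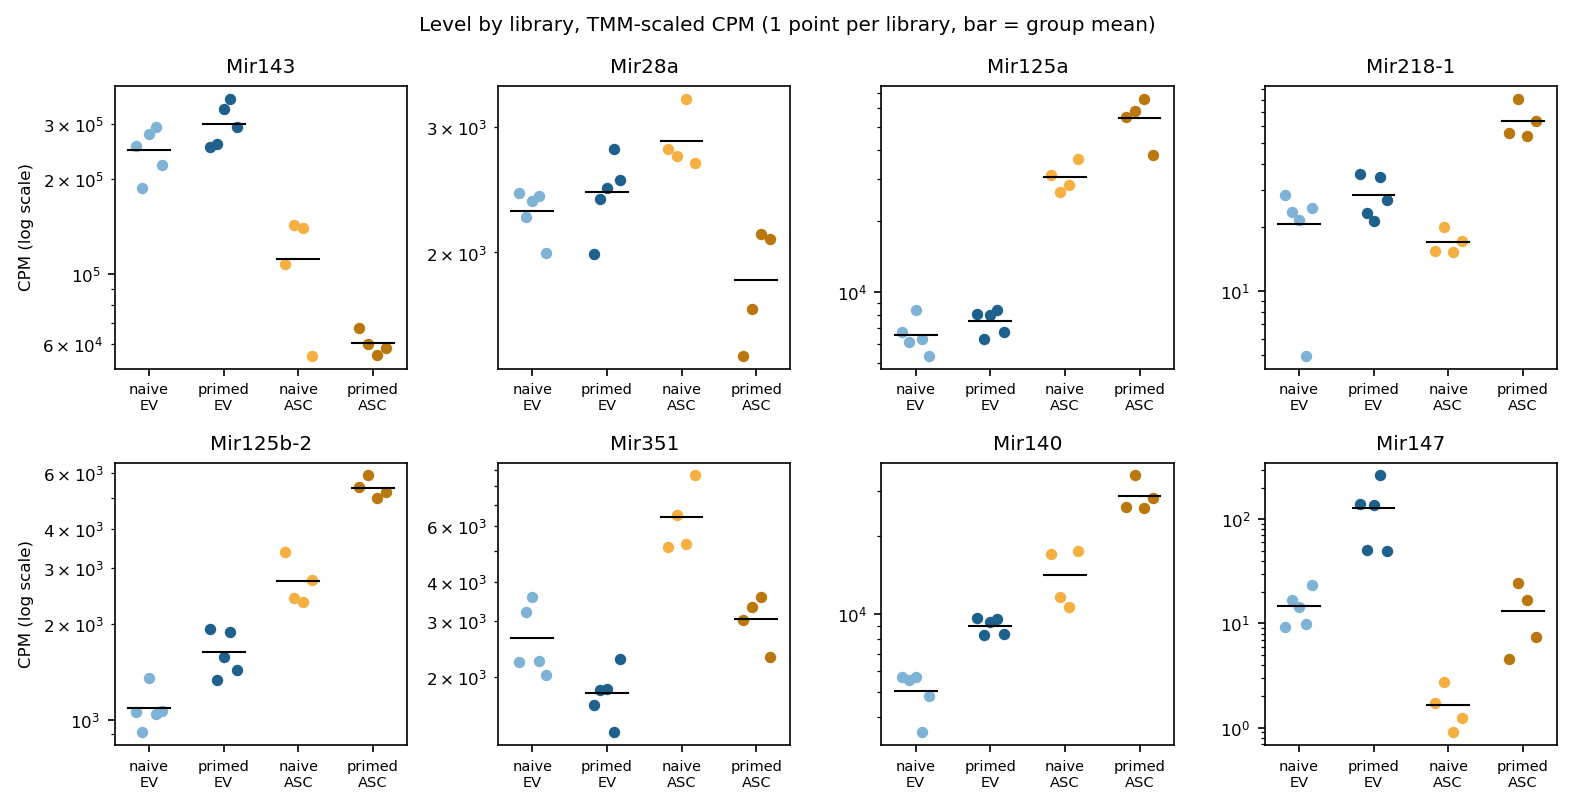
Level by library of 8 loci, in CPM scaled by TMM on a log axis, with 1 point per library and a bar at each group mean. Each panel has its own axis range. Mir140 and Mir147 are higher in every primed library than in every naive one in both EVs and ASC, Mir28a, Mir125a, Mir218-1, Mir125b-2 and Mir351 part only the ASC groups, and Mir143 parts neither.

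The Dlk1-Dio3 region of chromosome 12 is an imprinted cluster whose many microRNAs are made from the maternal chromosome. The loci counted here are those from Mir770 to Mir3072 by position. Mir1247, in Dio3os, lies outside that span and rose in ASC by 1.75. In ASC 5 of the 34 tested loci of the span fell and 0 rose, beside 4.9% of all loci called lower. Of the 34, 4 were above 0, beside 41.2% of all loci, and their median was -0.46. In EVs 0 passed by edgeR's quasi-likelihood test (1 at an unadjusted p under 0.05), with 15 above 0 (51.8% of all loci were) and 19 below, and a median of -0.02. That split depended on the scaling, from 4 above and 30 below with library totals (median -0.30, where that of all loci was -0.25) to 17 and 17 with upper quartiles (0.01, where that of all loci was 0.07). The difference was above 0 at 29 of 34 loci, beside 53.1% of all loci, with a median of 0.45, and 0 passed, with 6 at an unadjusted p under 0.05. Under the other 5 scalings its median ran from 0.16 upward and kept its sign. The loci lie side by side and are thought to come from 1 long transcript, so they are not independent of each other.

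Of the 5 loci that fell in ASC, Mir541 (ENSMUSG00000076052, chr12:109742409-109742498, in an intron of Mirg) was the most abundant. Naive ASC held 13134, 11779, 13612 and 15420.4 CPM and primed ASC 11391, 5555, 5633 and 8465, all below the naive libraries. In naive EV it stood at 8414, 7464, 5131, 5893 and 8968, and in primed EV at 7025, 8199, 6601, 5989.5 and 7693, inside the naive range. The change was -0.80 in ASC (edgeR adjusted p = 0.0297) and -0.01 in EVs, and the difference was 0.78 (SE 0.30; edgeR adjusted p = 0.267). The ASC call was lost in 8 of 16 alternatives and in 15 of 18 fits without 1 library.

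Mir382 (ENSMUSG00000065428, chr12:109733772-109733851, in an exon of Mirg) held 376, 361, 409 and 394 CPM in naive ASC and 219.9, 180.2, 166 and 301 in primed ASC, without overlap. Its vesicle levels were 176, 149, 213, 179 and 226 in naive EV and 132, 267, 217, 261 and 187 in primed EV, with overlap. It fell by 0.82 in ASC and was at 0.18 in EVs, a difference of 1.00 (SE 0.32; edgeR adjusted p = 0.267). Mir495 gave -1.26 in ASC, -0.03 in EVs and a difference of 1.23 (SE 0.53), and Mir487b gave -0.95, -0.25 and 0.70 (SE 0.34). Mir758 had the EV value furthest below 0 of the 5, -0.85, which did not pass, beside -1.51 in ASC (-2.13 without primed ASC 2) and a difference of 0.65 (SE 0.54). The ASC call was lost in 9 of 16 alternatives and 14 of 18 fits without 1 library for Mir382, in 10 and 15 for Mir495, in 5 and 5 for Mir487b and in 4 and 7 for Mir758.

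**Figure D3:**
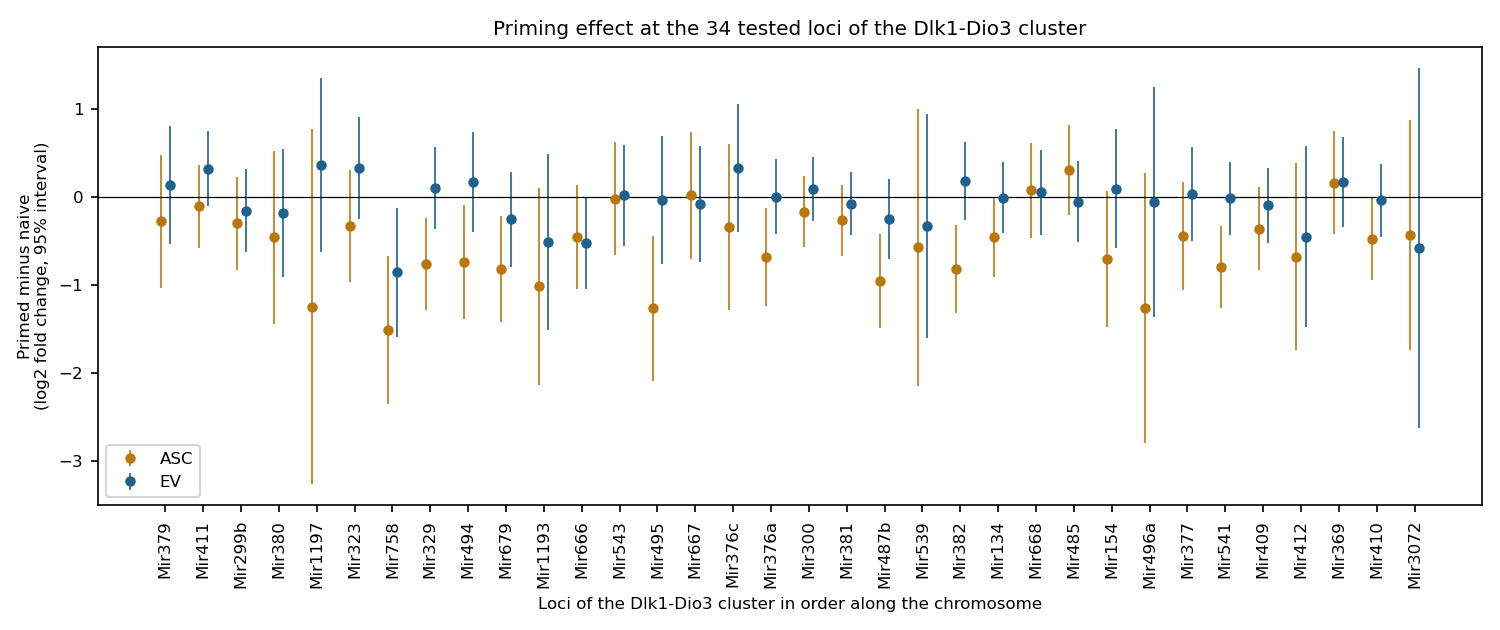
Priming effect (log2 fold change with its 95% interval, y axis) in ASC (brown) and EVs (blue) at the 34 tested loci of the Dlk1-Dio3 cluster, in order along the chromosome (x axis). ASC values lie below 0 at 30 loci and EV values at 19, and the 2 intervals of a locus overlap at most positions.

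Mir125a, Mir125b-1, Mir125b-2 and Mir351 carry the seed CCCUGAG shown above. The miR-125 group is related to lin-4 of worms and is known for targets in inflammatory signalling and blood cell formation, and Mir351 is a rodent relative on the X chromosome. Mir125b-2 (ENSMUSG00000065472, chr16:77646273-77646343, in an intron of Mir99ahg) was higher in every primed than in every naive ASC library, from 3374, 2419, 2359 and 2762 CPM in naive to 5395, 5891, 5002 and 5231 in primed ASC. Naive EV held 1061, 915, 1356, 1045 and 1063 and primed EV 1928, 1334, 1577, 1887 and 1441, where primed EV 2 lay within the naive range. The change was 0.98 in ASC (SE 0.17; edgeR adjusted p = 0.00469) and 0.59 in EVs (SE 0.16; edgeR adjusted p = 0.0834), which did not pass. The difference was -0.39 (SE 0.23, 95% interval -0.88 to 0.10). In 5 alternative fits, each without 1 or more EV libraries, the EV value passed.

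Mir125a (ENSMUSG00000065479, chr17:17830803-17830887, in an exon of Spaca6) stood at 31402, 26639, 28497 and 36527 CPM in naive ASC and 55297, 58495, 65912 and 38223 in primed ASC, without overlap. Its EV libraries held 6769, 6114, 8359, 6297 and 5361 when naive and 8068, 6339.6, 8005, 8374 and 6751 when primed, with overlap. It rose in ASC by 0.82 (edgeR adjusted p = 0.00883) and was at 0.19 in EVs, and the difference was -0.63 (SE 0.24, 95% interval -1.14 to -0.13; edgeR adjusted p = 0.267). Mir125b-1, which makes the same 5′ strand as Mir125b-2, gave 0.68 in ASC, 0.40 in EVs and -0.28 for the difference (SE 0.21). Whether reads of the shared strand were divided between Mir125b-1 and Mir125b-2 or left uncounted is not stated in the labels or headers. Their separate values are therefore uncertain.

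Mir351 (ENSMUSG00000065503, chrX:53053255-53053353) went the other way with the same seed. Its naive ASC libraries held 5152, 6503, 5267 and 8662 CPM and its primed ones 3018, 3326, 3566 and 2304, without overlap. Naive EVs held 2228, 3196, 3568, 2242 and 2025 and primed EVs 1633, 1814, 1834, 1337 and 2273, where only primed EV 5 lay inside the naive range. The change was -1.07 in ASC (SE 0.23; edgeR adjusted p = 0.00762) and -0.58 in EVs (SE 0.20; edgeR adjusted p = 0.228), a difference of 0.49 (SE 0.30). The CPM of the 4 loci, which count both arms of each hairpin, were summed, so the sum is not a level of the seed. It stood at 82094 ± 11083 CPM (SD, n = 4) in naive cells and 130362 ± 17987 (n = 4) in primed cells. In naive and primed EVs it stood at 19227 ± 2392 (n = 5) and 22653 ± 2098 (n = 5). Mir351 made up 5.91% to 9.26% of that sum in naive ASC and 2.21% to 2.49% in primed ASC. In naive and primed EVs its share was 10.9% to 16.3% and 5.53% to 11.1%, so the primed range lay lower in both, with a slight overlap in EVs.

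Mir140 and Mir147 were called higher in vesicles as well as in cells. Mir140 (ENSMUSG00000065439, chr8:107551244-107551313, in an exon of Wwp2) is best known from cartilage. It held 5718, 5539, 5696, 3486 and 4819 CPM in naive and 9624, 8281, 9339.6, 9544 and 8361 in primed EVs. The ASC values were 17038, 11617, 10696 and 17570.3 in naive and 26091, 34491, 25885 and 28229 in primed cells. Primed and naive libraries did not overlap in either. Mir140 rose by 1.01 in ASC (SE 0.19; edgeR adjusted p = 0.00469) and by 0.84 in EVs (SE 0.17; edgeR adjusted p = 0.011). The difference was -0.17 with a 95% interval of -0.70 to 0.36, which leaves out a 2-fold difference either way. The EV call was lost in 6 of 16 alternatives and in 6 of 18 fits without 1 library, each time an ASC library (naive ASC 1 or 3 or any primed ASC), with adjusted p up to 0.222.

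Mir147 (ENSMUSG00000076309, chr2:122640803-122640881, in the UTR of AA467197) is known to be induced by inflammatory signals in macrophages. It stood at 9.32, 16.6, 14.4, 9.97 and 23.1 CPM in naive EVs and 141, 51.1, 137, 264 and 49.9 in primed EVs. In naive ASC it was at 1.72, 2.75, 0.903 and 1.23 and in primed ASC at 4.54, 24.2, 16.6 and 7.45, again without overlap. These ASC levels rest on 6 counts in all naive and 24 in all primed libraries. By summed counts scaled to the libraries the primed level was 5.71 times the naive one in ASC (95% interval 2.27 to 17.1) and 8.23 times in EVs (6.40 to 10.7, from 69 and 601 counts), and these intervals cover counting error only. The fitted change was 2.71 in ASC (SE 0.82; edgeR adjusted p = 0.0297) and 3.15 in EVs (SE 0.47; edgeR adjusted p = 0.000827). The difference of 0.44 had an SE of 0.94 and a 95% interval of -1.54 to 2.41, so at this depth a 2-fold difference either way lay inside it. Its sign changed in 4 alternative fits, among them without naive ASC 3 (-0.16) and with counts thinned to the smallest library (-0.42), and it was 1.30 without the 2 libraries of fewest counts. The ASC call was lost in 5 of the 18 fits without 1 library, the EV call in none of them.

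Mir298 (chr2:174267504-174267585), of the imprinted Gnas region, fell in ASC by 0.74 (SE 0.22; edgeR adjusted p = 0.0331) and was at -0.67 in EVs (SE 0.19; edgeR adjusted p = 0.102), which did not pass. Naive ASC held 679, 942, 996 and 1201 CPM, primed ASC 563, 479, 714 and 530.5, naive EV 1005, 1353, 1244, 884 and 1405 and primed EV 667, 762, 740.2, 590.1 and 950.2. Both kinds of library overlapped slightly. The difference was 0.08 with a 95% interval of -0.53 to 0.68. Its ASC call was lost in 12 of 16 alternatives and in 15 of 18 fits without 1 library.

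At 12 of the 13 loci that rose in cells the difference was below 0 without a call, and choosing loci by high cell values favours that sign. Mir218-1 (chr5:48223942-48224051, in an intron of Slit2, a gene for an axon guidance ligand) held 15.4, 20.1, 15.4 and 17.3 CPM in naive and 55.4, 80.7, 54 and 63.4 in primed ASC, without overlap. Naive EVs held 28.4, 23.8, 21.6, 4.98 and 24.8 and primed EVs 35.7, 23.5, 21.5, 34.6 and 27, with overlap. It rose by 1.88 in ASC (SE 0.39; edgeR adjusted p = 0.00745), was at 0.42 in EVs (SE 0.35) and had a difference of -1.46 (SE 0.52; edgeR adjusted p = 0.267). Counts thinned to the smallest library gave -2.61 for the difference.

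Mir7224, in an intron of B3galt1, rose by 2.04 in ASC and was at 0.84 in EVs, a difference of -1.20 (SE 0.58). The EV value and the difference depended on naive EV 1, which held the most Mir7224 of its group. Without it the EV value was 1.57 and passed (edgeR adjusted p = 0.0481), and the difference was -0.55. Mir1247, in an exon of Dio3os, rose by 1.75 and was at 0.47, a difference of -1.28 (SE 0.62). Mir671, in an exon of Chpf2, rose by 1.07 and was at 0.13, a difference of -0.95 (SE 0.36). Of the other loci that rose in cells, Mir423 gave 1.04, 0.29 and -0.74 (SE 0.39), Mir34b, a target of p53, 0.86, 0.22 and -0.65 (SE 0.33), and Gm25301 1.05, 0.56 and -0.49 (SE 0.42). In each of these 6 the vesicle value had the sign of the cell value at a smaller size, which for Mir7224 was close to the cell value without naive EV 1. Near 0, the EV values of Mir671, Mir423 and Mir34b changed sign in 3, 1 and 2 alternative fits, and the difference at Gm25301 was -1.20 with counts thinned to the smallest library. Mir6236, an intergenic locus whose sequence resembles ribosomal RNA, had opposite signs instead. It stood at 1314, 1352, 614 and 871 CPM in naive ASC and 1175, 4802, 3964 and 2163 in primed ASC, and at 1961, 1697, 4415, 6486 and 2970.5 and 1679.7, 3325, 2905, 2928 and 3951 in naive and primed EVs. The groups overlapped in both. It gave 1.54 in ASC, -0.24 in EVs and -1.79 for the difference (SE 0.57; edgeR adjusted p = 0.267). That difference passed with no filter on low counts (-1.59, edgeR adjusted p = 0.00158). Without the 2 libraries of fewest counts the ASC value was 0.65 and the difference -0.92. The ASC call was lost there, with limma-voom, and without naive ASC 3, 4 or 5 or primed ASC 3 or 4.

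Mir1983 (chr13:21896918-21897049, intergenic) had a value of the difference above 0 instead, without a call. It held 127, 145, 158 and 135 CPM in naive ASC and 64.5, 21.5, 20.8 and 85.7 in primed ASC, without overlap and with the lowest values in the 2 libraries of fewest counts. Naive EVs held 124, 149.7, 182, 68.1 and 112 and primed EVs 115, 129, 99.6, 114 and 193, with overlap. The change was -1.47 in ASC and 0.02 in EVs, a difference of 1.49 (SE 0.50; edgeR adjusted p = 0.267), which was 0.90 without those 2 libraries and 2.13 with counts thinned to the smallest library. Mir582, in an intron of the phosphodiesterase gene Pde4d, fell by 0.89 in ASC and was at 0.10 in EVs, a difference of 1.00 (SE 0.37). Its ASC call was lost in 11 of 16 alternatives and 15 of 18 fits without 1 library. Mir3095, in an intron of the lysophosphatidic acid receptor gene Lpar1, was the locus with the largest difference, but it rests on 2 counts in naive and 20 in primed EVs, a ratio of 9.44 (95% interval 2.29 to 83.3, counting error only). In ASC its counts were 50 and 21, a ratio of 0.599 (0.342 to 1.02).

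**Figure D4:**
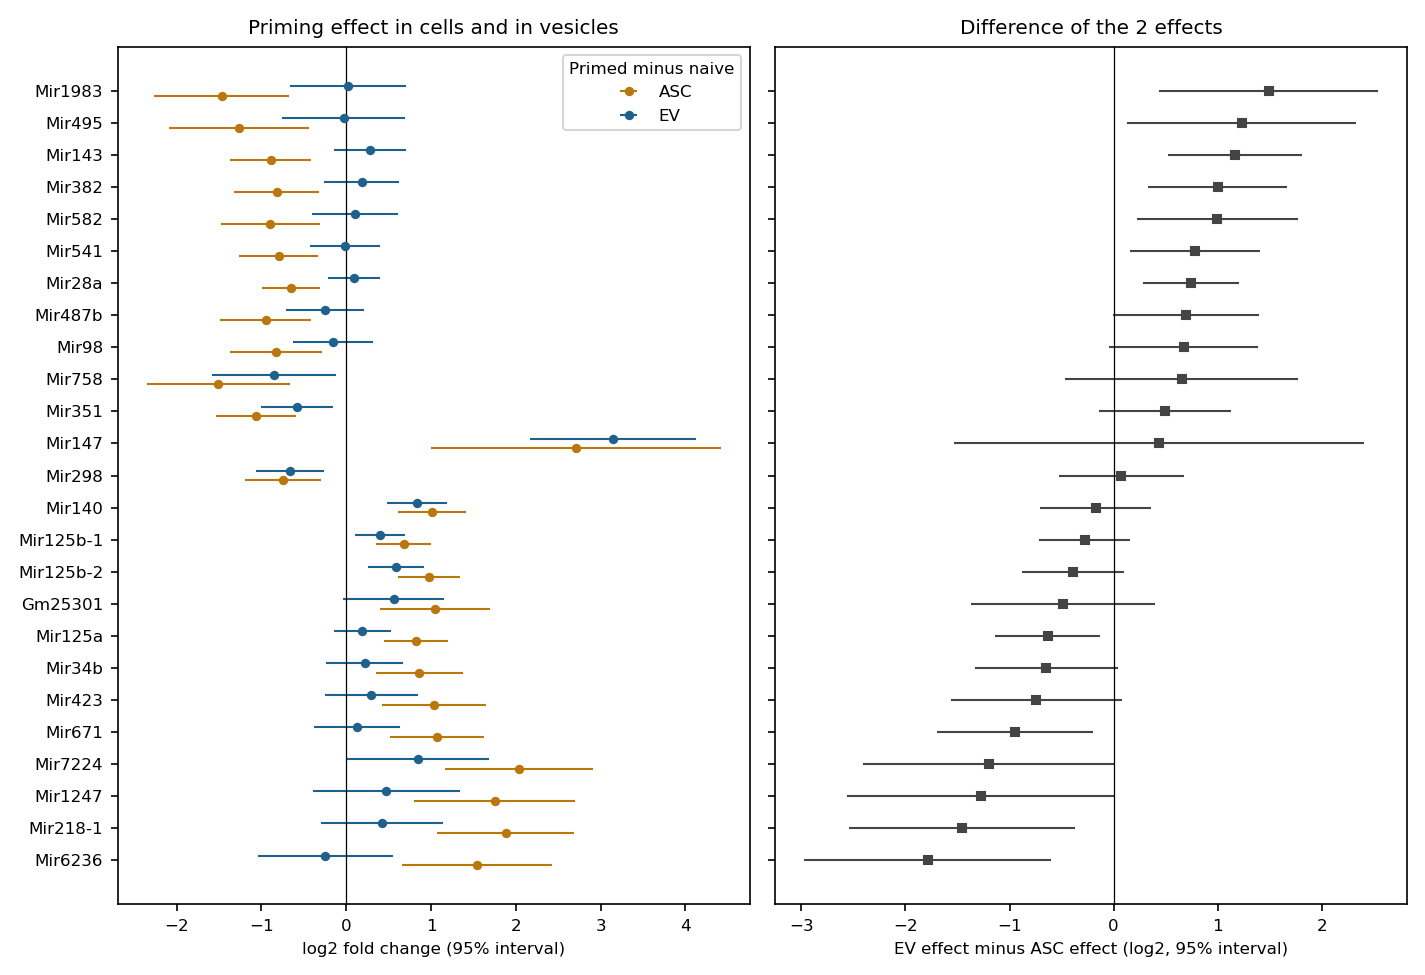
The 25 loci called in ASC, with the priming effect in ASC (brown) and EVs (blue) on the left and the EV effect minus the ASC effect on the right, as log2 values with 95% intervals. Loci are ordered by the difference. The 12 loci that fell in ASC lie above 0 on the right, as does Mir147, and the other 12 loci that rose in ASC lie below 0.

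The let-7 family acts in developmental timing and is repressed by LIN28 in early cells. At 11 of its 12 tested loci the sequences used here include a strand with the seed GAGGUAG shown above. They include none for Mirlet7a-2, a gap that does not show that this locus lacks the seed. In ASC 1 locus fell (4.9% of all loci did), Mir98 at -0.83, a call lost in 12 of 16 alternatives and 15 of 18 fits without 1 library. Of the 12, 3 were above 0 in ASC, beside 41.2% of all loci, with a median of -0.24 beside -0.12, and 5 were with relative log expression factors, TMMwsp, upper quartiles or TMM within each kind. In EVs 11 of 12 were above 0, beside 51.8% of all loci, with a median of 0.27. By edgeR's quasi-likelihood test 0 passed in EVs, and 5 were higher at an unadjusted p under 0.05, beside 6.53% of all loci. With library totals 5 of 12 were above 0 in EVs, with a median of -0.02 where that of all loci was -0.25. The difference was above 0 at 11 of 12 loci with a median of 0.48, beside 0.075 over all loci, and stayed between 0.20 and 0.48 over the 6 scalings, with 0 passing. The smallest p among them was that of Mirlet7f-1, which is annotated within 6720427I07Rik on the opposite strand, with -0.30 in ASC, 0.45 in EVs and 0.74 for the difference (SE 0.28; edgeR adjusted p = 0.267). Naive EVs held 7203, 5991, 7338, 6389.7 and 8592 CPM and primed EVs 10743, 7543, 10287, 9721 and 10082, with overlap, and naive and primed ASC held 1724, 2299, 2339 and 1431, and 1139, 1326, 1772 and 2116. Mirlet7c-1 gave 0.61 (SE 0.23), Mir98 0.67 (SE 0.34) and Mirlet7d 0.00 (SE 0.22). Reads of near-identical let-7 strands could be divided between loci or left uncounted, so single members are uncertain.

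Among 15 tested loci linked to inflammation or interferon, 4 rose in ASC (Mir147, Mir125a, Mir125b-1 and Mir125b-2), beside 5.31% of all loci, and 1 in EVs (Mir147), beside 0.816%. In EVs 14 of the 15 were above 0, beside 51.8% of all loci, with a median of 0.22 beside 0.02. By edgeR's quasi-likelihood test 4 were higher there and 1 lower at an unadjusted p under 0.05, beside 6.53% and 3.67% of all loci. With library totals 6 of the 15 were above 0 in EVs, with a median of -0.055 where that of all loci was -0.25. The difference was above 0 at 7 of 15, beside 53.1% of all loci, with a median of -0.12 beside 0.075, and 0 passed. Mir155, which activated immune cells induce, was at 0.25 in ASC and 0.66 in EVs, with a difference of 0.41 (SE 0.39). All its primed EV libraries lay above all naive ones in TMM-scaled CPM, primed EV 1 only just above naive EV 1. By library totals alone primed EV 1 lay below naive EV 1. Mir146, which holds back innate signalling, was at 0.53 and 0.14 (-0.39, SE 0.71, and -1.35 with counts thinned to the smallest library). Mir21a gave 0.51 (SE 0.27), Mir221 0.17 (SE 0.32) and Mir222 -0.37 (SE 0.29). Mir31 was below 0 in both, at -0.73 and -0.98, without a call.

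Lists of markers of other cell types and of other RNA classes held no locus that passed the test of the difference, and their part in the contrast was not tested. Of 9 tested blood loci 7 had a difference below 0, with a median of -0.53, and the one furthest from 0 was Mir451a, a red cell microRNA, at 1.28 in ASC, -0.58 in EVs and -1.87 for the difference (SE 0.79; edgeR adjusted p = 0.36), which passed only with no filter on low counts (-1.78, edgeR adjusted p = 0.00158). Without naive EV 4 its EV value was 0.14 and its difference -1.13, without the 2 libraries of fewest counts the difference was -1.03, and thinned counts gave -2.53. The summed share of the blood markers, only a part of this list, was 0.361% to 1.49% in naive and 0.147% to 0.625% in primed EVs. In ASC it was 0.0128% to 0.0214% in naive and 0.00916% to 0.0559% in primed libraries. The whole list held 0.464% to 1.63% and 0.257% to 0.721% in naive and primed EVs, and 0.229% to 0.377% and 0.246% to 0.335% in naive and primed ASC. The endothelial Mir126a had a difference of -1.13 (SE 0.67), which was -1.72 without naive ASC 1 or with thinned counts. Without the 2 libraries of fewest counts it was -0.09, and the ASC value went from 0.79 to -0.34. Of 7 rRNA-like loci 5 had a difference below 0, with a median of -0.72. Of 7 mirtron or other Drosha-independent loci 6 did, with a median of -0.24. All 3 medians, that of the blood loci included, were lower than that of all loci under each of the 6 scalings. Of 9 loci of the 17-92 clusters 5 were above 0 and of 10 epithelial loci 5, with medians of 0.08 and 0.16 that changed sign with the scaling. The epithelial loci lay below 0 within both parts of the contrast, at 10 of 10 in ASC (median -0.72, beside -0.12 for all loci) and at 8 of 10 in EVs (median -1.57, beside 0.02). In the main fit 0 of them passed in either by edgeR's quasi-likelihood test, and 0 did at an unadjusted p under 0.05. In EVs Mir205 (-1.68) was -0.68 without naive EV 4 and -2.43 without primed EV 3, and Mir200b (-1.97) -0.76 and -2.72. In ASC Mir205 (-0.91) was -0.11 without naive ASC 4 and -1.71 without primed ASC 3. With no filter on low counts Mir205 and Mir200b passed in EVs (edgeR adjusted p = 3.4e-06 and 0.00046) and in ASC (0.031 and 0.00013). In EVs Mir205 also passed with a block by title number (edgeR adjusted p = 0.022). The summed share of the 7 epithelial markers, only a part of this list, reached 0.287% in naive and 0.0613% in primed EVs, and 0.270% in naive and 0.127% in primed ASC. The whole list reached 1.37% and 0.666% in naive and primed EVs, and 1.96% and 1.35% in naive and primed ASC. By edgeR's quasi-likelihood test of the difference 0 loci of these lists passed, and at an unadjusted p under 0.05 the blood (9 loci), rRNA-like (7) and 17-92 (9) lists held 1 each, close to the 10.6% of all loci.

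Each of 4 naive and 4 primed ASC libraries has an EV library of matching title (3C+IFG2 was set beside 3E+IFG1+2), which allows the vesicle level to be set against that of the cells of the same title. These log2 CPM differences did not overlap between primed and naive cultures at 13 of 245 loci (5.31%), of which 11 were higher and Mir7224 and Mir7035 lower in primed cultures. Among the 25 loci called in ASC this held for 6, namely Mir28a, Mir541, Mir1983, Mir495, Mir487b and Mir7224. The ASC libraries by which the 25 were chosen also enter these differences, which favours parting, so this count describes them and tests nothing. For Mir28a the EV level minus that of the cells was -0.20, -0.21, -0.45 and -0.42 in naive cultures and -0.07, 0.73, 0.56 and 0.40 in primed ones. For Mir541 it was -0.64, -1.20, -1.21 and -0.78, and -0.27, -0.47, 0.25 and 0.09. For Mir143 it was 1.25, 0.95, 1.07 and 2.01 in naive and 2.12, 1.95, 2.48 and 2.71 in primed cultures, which overlapped through the naive culture titled 5. Mir140 was at -1.57, -1.03, -1.62 and -1.87 against -1.55, -1.66, -1.88 and -1.44, with the primed values inside the naive range but for the lowest.

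**Figure D5:**
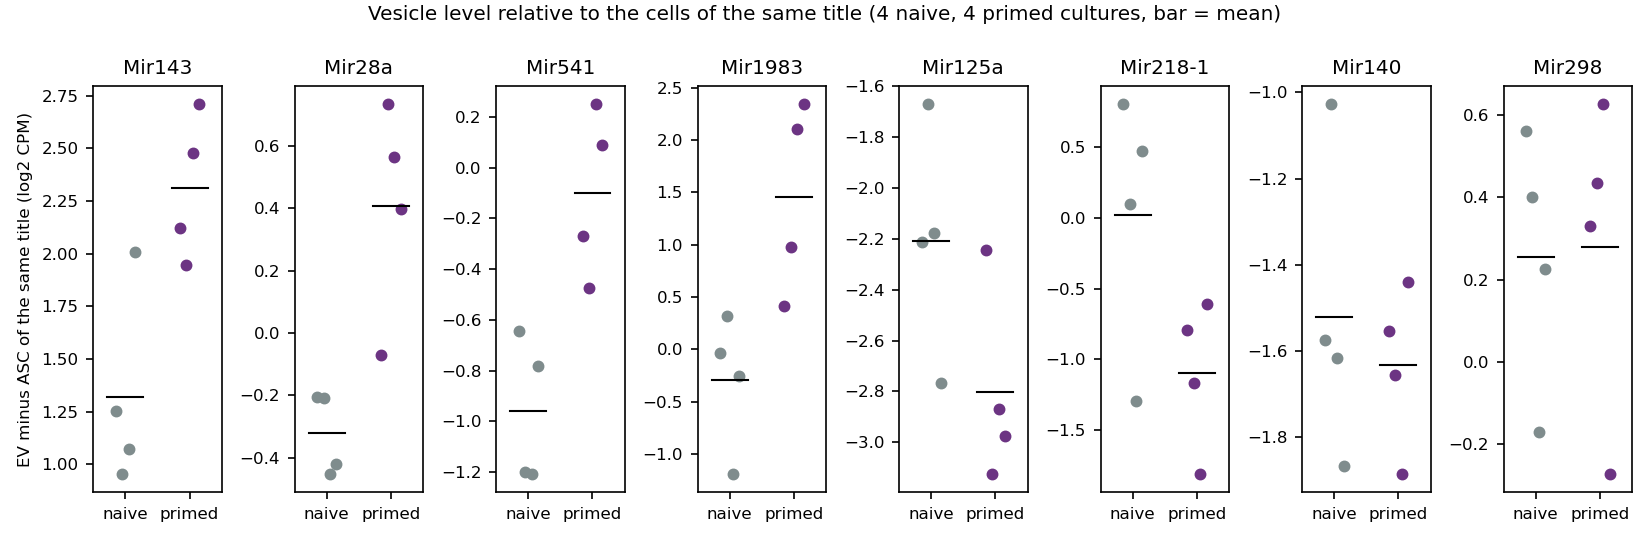
EV level minus ASC level of the same title (log2 CPM, y axis, with its own range in each panel) for 8 loci in 4 naive and 4 primed cultures (x axis), 1 point per culture and a bar at the mean. Primed cultures lie above naive ones without overlap for Mir28a, Mir541 and Mir1983, and overlap with them for Mir143, Mir125a, Mir218-1, Mir140 and Mir298.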

How the data were processed

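Small RNA libraries of 10 EV and 8 ASC samples were analysed from raw counts per miRNA hairpin locus, 1 table per library. Per the file headers, the authors made these counts with featureCounts 1.5.3 on Ensembl release 76 miRNA genes, ignoring strand and with no setting for multi-mapping reads. GRCm38 is the build in the submitters' processing notes, which list STAR 2.0.4, bcl2fastq, Subread and another featureCounts version, 1.45. How reads were trimmed and aligned is not given in the sources used here. Reads were counted without molecular identifiers, so intervals on counts cover counting error only.

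Of 2009 loci 1899 matched GENCODE M21 by identifier, 1820 with identical coordinates, and the other 110 held 5 of 17629699 counts. In 7 cases an annotated antisense gene took the RefSeq miRNA name at its place, since unstranded counting does not tell them apart. All coordinates are GRCm38, counted from 1.

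filterByExpr on the 4 groups kept the tested loci (245 loci, 99.9573% of counts), which were scaled by TMM and fitted with 1 mean per group over all 18 libraries in edgeR 4.0.16 (R 4.3.3). The contrasts primed minus naive ASC, primed minus naive EV and their difference were put to its quasi-likelihood test, Benjamini-Hochberg adjusted over 245 loci, with a threshold of 0.05. SE and 95% intervals come from the fit's model. CPM values use TMM-scaled totals, and differences within a title use log2 CPM with a prior count of 2. Alternatives were 5 other scalings, DESeq2 1.42.0, limma-voom (limma 3.58.1), robust estimation, other count filters, thinning, replicate blocks, separate fits and each library left out. After the data were seen, fits without the primed libraries titled IFG1 alone and without the 2 libraries of fewest counts were added. No library pair of a group looked like a repeat deposit (smallest chi-square per degree of freedom 22.3).

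Loci named are those with the 10 smallest p of the difference whose highest group mean is 10 CPM or more, the called loci of each part (up to 15 in ASC), the 5 most abundant per group, up to 4 per list, and Mir155, Mir146, Mir147, Mir140, Mir21a, Mir221 and Mir222. Gm25301, Mir145a, Mir298, Mir31, Mir34b, Mir423, Mir495, Mir7035, Mir98 and Mirlet7d lie outside this rule and were chosen after their values were seen. The members and lists were chosen with earlier results of these data known.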

Additional observations from a re-analysis of the deposited data

Results flagged for a closer look

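Among 96 groups of EV libraries or ASC libraries looked at (24 loci in 4 groups), 3 held 1 library far from the others of its group, and chance gives about 1 in 20. Mir218-1 was at 4.98 CPM in naive EV 4, where the next lowest naive EV library held 21.6. Mir7224 was at 27.9 CPM in naive EV 1, where the next highest held 11.6. Mir1247 was at 289 CPM in primed EV 1, where the next highest primed EV library held 146.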

How the results depend on the processing

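The count of 0 loci for the difference held in every alternative except 2, with 3 loci when no filter on low counts was applied (Mir6236, Mir451a and Mir143) and 1, Mir143, without naive ASC 5, so that leaving out 1 library gave 0 to 1. The 25 ASC calls ran from 6 to 33 when 1 library was left out and were 3 without the 2 libraries of fewest counts, and other alternatives gave 17 to 36. The 2 EV calls ran from 1 to 8 when 1 library was left out, 8 of them without primed EV 2 and 4 without naive EV 1. They were 1 with TMMwsp, with library totals, with upper quartiles and without the 2 libraries of fewest counts, 8 with no filter on low counts, 0 with at least 50 CPM in 4 libraries (Mir147 was not tested there, Mir140 was at an adjusted p of 0.0991, and 17 loci had an unadjusted p under 0.05), and 6 without the primed libraries titled IFG1 alone. The cause of these changes was not tested. No call changed sign in any alternative, while 123 of 2207 values of the difference, at 20 of 65 loci, did. The EV values changed sign in 203 of 2207, at 38 loci, and the ASC values in 141, at 13 loci.

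A replicate block by source number gave 0 calls for the difference, 31 for ASC and 3 for EVs, and one by title number gave 0, 36 and 4. A replicate block by culture title gave 0 for the difference. Numbers pair the libraries only in part, since deviations of libraries with the same source number correlated at -0.16 to 0.52 (19 of 24 pairs over 0.1), with the same title number at -0.16 to 0.66 (23 of 30) and with the same culture at -0.16 to 0.42 (6 of 8). The medians were 0.31, 0.33 and 0.31, against -0.12, -0.16 and 0.0005 for the other pairs of libraries from different groups. The main fit takes no account of pairing. The ASC part is the less precise of the 2 (median SE 0.33 against 0.29), with 4 libraries a group and the shallowest at 180812 counts.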
